A study of Mus musculus with 12 samples.

Results

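The genes described here encode the machinery of oxidative phosphorylation: the subunits of respiratory complexes I to IV and of the ATP synthase, cytochrome c, factors that assemble the complexes, and genes of the electron transfer flavoprotein route that feed electrons from fatty acid and amino acid breakdown into the chain. They were taken by gene symbol alone, as every measured gene whose symbol begins with Nduf, Sdha to Sdhd, Uqcr, Cox and a digit, Cycs or Cyc1, Atp5, Surf1, Sco1 or Sco2, Bcs1l, Ttc19, Etfa, Etfb or Etfdh. The rule uses no measured value. With 1 probe set per gene, 66 of 9984 measured genes met the rule. The RefSeq gene table holds 120 protein-coding symbols of this kind, and 54 of them are not among the genes analysed here. None of the 13 subunits encoded in mitochondrial DNA was measured, so every value below concerns the nuclear part of the system. The pattern Etfb took Etfbkmt, a lysine methyltransferase that acts on the beta subunit of electron transfer flavoprotein and carries no electrons itself, while Etfb is not among the genes analysed here.

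In the respiratory chain, complexes I and II pass electrons from NADH and succinate to ubiquinone, complex III passes them to cytochrome c, and complex IV passes them to oxygen. Complexes I, III and IV pump protons across the inner mitochondrial membrane, and the ATP synthase uses the returning protons to make ATP. Quiescent haematopoietic stem cells are known for relying less on this route and more on glycolysis than the progenitors that they give rise to.

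The study profiled 12 arrays from sorted bone marrow cells of male C57Bl/6 mice, backcrossed for at least 6 generations, in 4 groups of 3. Erg is a transcription factor of the ETS family, and exon 11, which encodes its DNA-binding domain, was flanked by loxP sites. Erg -/- MPPs (multipotent progenitors) came from Mx1-Cre mice with both floxed alleles deleted, and Erg fl/fl MPPs from floxed mice without Cre. Both MPP groups received pIpC, the interferon inducer that switches on the Mx1 promoter, as 5 injections of 200 µl at 1.5 mg/ml with a 2-day interval, and were sorted 2 weeks from the start of dosing. Erg +/- HSCs (haematopoietic stem cells), which the sample titles call knockouts although 1 allele is intact, came from a cross to a general Cre deleter line, and Erg +/+ HSCs were wild type. Mx1-Cre cannot be told apart from the genotype in the MPPs, and pIpC cannot be told apart from the population when MPPs are set against HSCs. HSCs were sorted as Lineage-, Sca-1+, c-kit+, CD150+ and CD48-, whereas for MPPs one label field gives CD150- and another repeats the HSC gate. Erg itself is not analysed here. The labels do not say whether the 3 arrays of a group came from separate mice.

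The values are log2 signals after robust multi-array averaging (RMA), so a difference of 1 is a 2-fold difference, and the signal of a probe set was compared only with the same probe set on other arrays. The populations could be told apart by their markers. The 5 measured of 17 listed HSC markers averaged 6.23 to 6.45 on the Erg -/- MPP arrays and 6.86 to 6.99 on the Erg fl/fl MPP arrays, against 9.80 to 9.90 on the Erg +/- HSC arrays and 9.64 to 9.78 on the Erg +/+ HSC arrays. Flt3, a receptor of lymphoid-primed progenitors, was higher in Erg fl/fl MPPs than in Erg +/+ HSCs by 2.57 (limma, adjusted p = 2.42e-04). It was the only 1 called of the 4 measured of 13 listed MPP and early lymphoid markers. Of these 4, 3 had positive differences and Notch1 was negative at -0.05. Erg fl/fl MPP replicate 1 stood apart for these genes before any comparison was made. On that array 58 of the 66 genes (87.9%) lay above their own 12-array mean, against 50.2% of all genes, and 21 of them (31.8%) had their highest value of all 12 arrays there, against 11.4% of all genes. On the other 11 arrays between 24 and 41 of the 66 lay above their mean. The background of all genes is dimmer, since 64 of the 66 are among the 4992 brighter genes. The interquartile range over all probe sets was 2.84 on that array. It was 2.53 and 2.58 on the other Erg fl/fl MPP arrays, 2.50 to 2.64 on the Erg -/- MPP arrays and 2.83 to 2.99 on the HSC arrays. Whether this spread bears on the shares was not tested. Several counts and medians that use this array are given with and without it, and so are some single genes that it moves. Counts of positive and negative differences over the 66 are given only with it. The same holds for the signs shared by both genotype effects and for the correlations between comparisons.

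**Figure D1:**
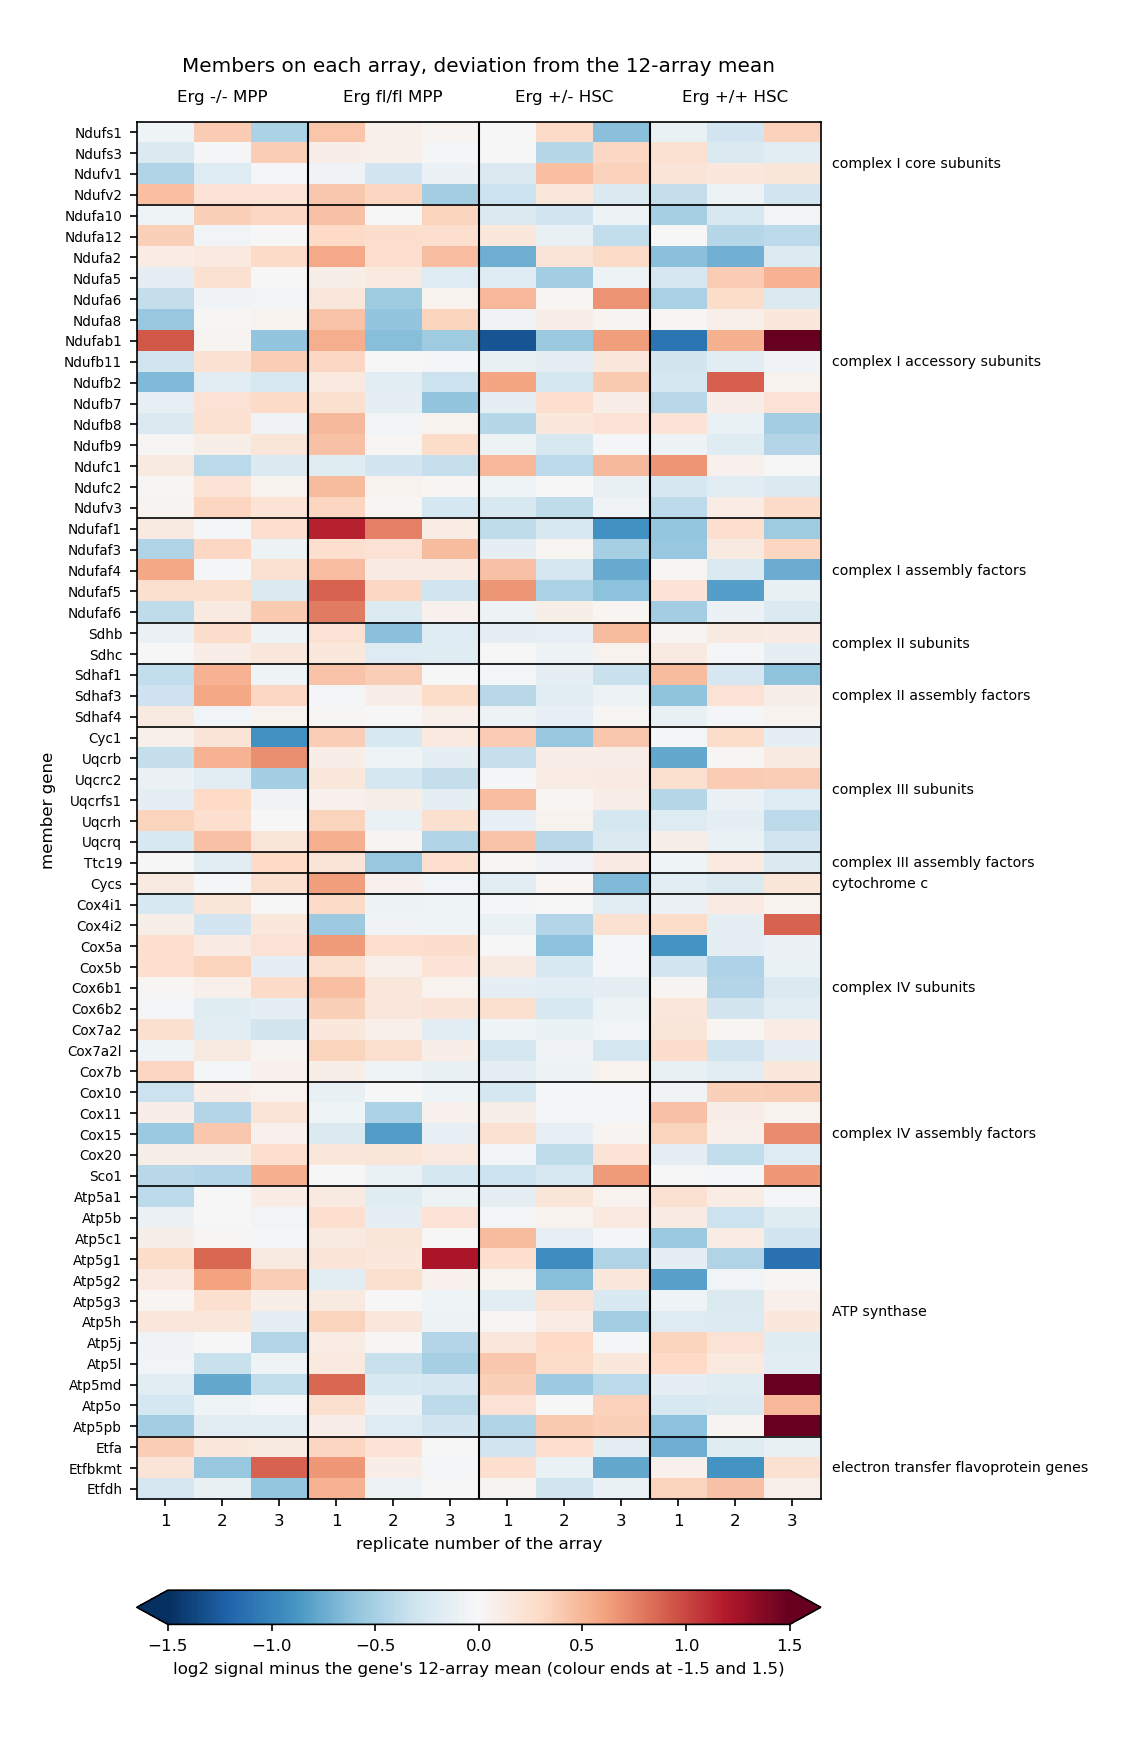
Heat map of the 66 genes (rows, grouped by role) on the 12 arrays (columns, 3 replicates per group), coloured by log2 signal minus the gene's 12-array mean, with colours ending at 1.5 in both directions, which 3 genes exceeded. The column of Erg fl/fl MPP replicate 1 is red for 58 of 66 genes, while no group as a whole shows 1 colour.

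Short motifs in the promoters of these genes are shown first, because oxidative phosphorylation genes are known as targets of NRF1 and of ETS-family proteins, the family to which Erg belongs. RefSeq promoter sequences (build GRCm38.p6, 250 bases before to 50 bases after the start of each gene) were matched by symbol for 54 of the 66 genes. The NRF1 core GCGCATGC, searched on both strands, occurred in 11 of the 54 (20.4%), against 3.05% of the 27025 genes in the promoter table. Among the 11 were Etfdh, Ndufa6, Atp5l, Atp5g2, Cycs, Sdhb and Etfa. This background takes every gene of that table, measured here or not, rather than the 9984 genes used elsewhere. The ETS motif CCGGAAGT occurred in 5 (Atp5h, Cox10, Cox15, Ndufs3 and Uqcrh, 9.26%), against 4.31% of the genes in that table. The YY1 motif AAGATGGC occurred in 6 (Atp5j, Atp5pb, Cox10, Cox20, Ndufb8 and Ndufc1; 11.1%), against 3.19%. These are matches of letters within a window and say nothing of binding. Cox10 held both the ETS and the YY1 motif. The promoters of 3 genes named in the comparisons below are printed 5′ to 3′ on the strand of the gene, with the motif in capitals. Ndufa6 (chr15:82354242-82354541, minus strand) holds the reverse complement of the NRF1 core. In Etfdh (chr3:79628718-79629017, minus strand) the core and its reverse complement overlap. Cox15 (chr19:43752951-43753250, minus strand) holds the ETS motif within the last 50 bases.
Ndufa6: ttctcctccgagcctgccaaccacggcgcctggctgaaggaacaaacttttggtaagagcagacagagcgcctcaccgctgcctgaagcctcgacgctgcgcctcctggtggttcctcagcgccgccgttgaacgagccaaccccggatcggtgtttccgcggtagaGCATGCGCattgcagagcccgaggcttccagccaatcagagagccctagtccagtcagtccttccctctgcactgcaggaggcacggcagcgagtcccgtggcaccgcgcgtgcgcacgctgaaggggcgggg
Etfdh: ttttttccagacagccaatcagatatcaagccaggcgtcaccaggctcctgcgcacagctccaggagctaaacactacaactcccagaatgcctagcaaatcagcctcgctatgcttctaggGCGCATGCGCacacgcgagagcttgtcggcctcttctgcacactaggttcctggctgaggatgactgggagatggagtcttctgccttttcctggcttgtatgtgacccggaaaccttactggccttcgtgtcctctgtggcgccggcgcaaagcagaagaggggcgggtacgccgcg
Cox15: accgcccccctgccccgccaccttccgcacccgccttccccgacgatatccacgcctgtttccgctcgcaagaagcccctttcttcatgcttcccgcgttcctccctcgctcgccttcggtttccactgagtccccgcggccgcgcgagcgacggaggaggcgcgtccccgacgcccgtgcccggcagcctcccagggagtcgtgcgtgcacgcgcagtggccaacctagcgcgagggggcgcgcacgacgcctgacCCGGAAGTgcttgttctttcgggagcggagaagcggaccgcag

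Across all 4 groups, none of the 66 genes passed the F test at an adjusted p of 0.05 (limma), where 0.411% of all genes did. The smallest adjusted p was 0.222, for Ndufaf1. At an unadjusted p under 0.05 there were 7 of the 66 (10.6%), against 16.4% of all genes. Without Erg fl/fl MPP replicate 1 there were 6 (9.09%), against 17.8% of all genes, and the smallest adjusted p was 0.185 (limma). The median within-group standard deviation of the 66 was 0.274, against 0.277 for all genes. The least variable was Sdhaf4 (0.0729), an assembly factor of complex II, and the most variable was Ndufab1 (1.05), the acyl carrier protein that is also a complex I subunit. In bulk samples such as these, fewer cells of a type and less RNA per cell cannot be told apart.

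Loss of both Erg alleles in MPPs was examined first, as Erg -/- MPPs minus Erg fl/fl MPPs. None of the 66 genes was called (limma, adjusted p under 0.05), with 0.0801% of all genes called. The median difference of the 66 was -0.05 with 25 positive and 41 negative, beside a median of -0.0040 over all genes and -0.09 over the 4992 brighter genes, which hold 64 of the 66. Without Erg fl/fl MPP replicate 1 the median of the 66 was 0.05, so that its sign rests on that array. At an unadjusted p under 0.05 no gene was higher (background 1.21%) and 1 was lower (1.52%, background 3.58%). In 3 of the 66 (4.55%), Etfdh, Cox6b2 and Cox5a, the 3 Erg -/- arrays all lay below the 3 Erg fl/fl arrays, and in none above, where 10.5% of all genes did not overlap in either direction. Without Erg fl/fl MPP replicate 1 the same 3 genes were below and 7 were above (15.2% together), against 19.1% of all genes. For 60 of the 66 the 95% interval of the difference lay within 1 log2 unit of 0, so a 2-fold change in either direction lies outside it. The 6 with wider intervals were Ndufab1, Ndufaf1, Ndufaf5, Cyc1, Atp5md and Atp5pb.

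The gene of smallest p in that contrast was Etfdh, the oxidoreductase that passes electrons from electron transfer flavoprotein to ubiquinone, whose promoter is printed above. Etfdh had log2 signals of 8.11, 8.25 and 7.78 on the Erg -/- MPP arrays, 8.88, 8.28 and 8.35 on the Erg fl/fl MPP arrays, 8.40, 8.06 and 8.26 on the Erg +/- HSC arrays and 8.69, 8.80 and 8.43 on the Erg +/+ HSC arrays. In each population the arrays with Erg loss all lay below their controls, narrowly at the closest pair. The difference was -0.46 ± 0.20 (SE, n = 3 each) in MPPs, with an unadjusted p of 0.0415 and an adjusted p of 0.998 (limma), and -0.40 ± 0.20 in HSCs, with an adjusted p of 0.834 (limma). Without Erg fl/fl MPP replicate 1, the highest of the 12 arrays for Etfdh, the MPP difference was -0.28 (limma, adjusted p = 1.000).

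Cox6b2, an isoform of a complex IV subunit known mainly from testis, had 8.59, 8.45 and 8.47 in Erg -/- MPPs, 8.98, 8.80 and 8.81 in Erg fl/fl MPPs, 8.86, 8.38 and 8.55 in Erg +/- HSCs and 8.79, 8.35 and 8.46 in Erg +/+ HSCs. The MPP groups do not overlap and the HSC groups do. Its MPP difference of -0.36 ± 0.17 (SE, n = 3 each) did not pass the test (limma, adjusted p = 0.998). Its widely expressed partner Cox6b1 differed by -0.10 in the same contrast. Ndufaf1, an assembly factor of complex I, differed by -0.55 ± 0.29 and by -0.32 without Erg fl/fl MPP replicate 1. Among positive differences the 3 of smallest p were Cox15 (0.36 ± 0.27), which makes the heme a of complex IV, Atp5g2 (0.33 ± 0.26), one of 3 genes for subunit c of the ATP synthase, and Ndufb7 (0.29 ± 0.24), an accessory subunit of complex I. All 3 had adjusted p-values of 0.998 (limma), and leaving out 1 array in turn moved Cox15 between 0.14 and 0.62, Atp5g2 between 0.21 and 0.44 and Ndufb7 between 0.08 and 0.50. The largest negative difference belonged to Atp5md, a small ATP synthase subunit, at -0.56 ± 0.49, and without Erg fl/fl MPP replicate 1 it was -0.19.

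Loss of 1 Erg allele in HSCs, as Erg +/- HSCs minus Erg +/+ HSCs, gave a similar count. None of the 66 was called (limma, adjusted p under 0.05; 0.0200% of all genes were), and the smallest adjusted p was 0.789. The median difference was 0.02 with 36 positive and 30 negative, equal to the 0.02 over all genes, and -0.02 over the 4992 brighter genes. At an unadjusted p under 0.05, 1 gene was higher (1.52%, background 2.73%) and none was lower (background 3.59%). The groups did not overlap for 6 of the 66 (9.09%, background 10.4%): Ndufc2, Ndufaf6 and Uqcrfs1 were above their controls on every array, and Uqcrc2, Cox7a2 and Etfdh were below. The 95% interval lay within 1 log2 unit of 0 for 60 of the 66.

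Uqcrfs1 encodes the Rieske iron-sulfur protein of complex III, one of the subunits that carry its electrons. Its log2 signals were 7.72, 8.16 and 7.80 in Erg -/- MPPs, 7.92, 7.94 and 7.71 in Erg fl/fl MPPs, 8.32, 7.89 and 7.96 in Erg +/- HSCs and 7.42, 7.77 and 7.66 in Erg +/+ HSCs. The HSC groups do not overlap, and the MPP groups do. The HSC difference was 0.44 ± 0.18 (SE, n = 3 each), with an unadjusted p of 0.0323 and an adjusted p of 0.789 (limma), and it lay between 0.31 and 0.53 when single arrays were left out. Uqcrc2, a core protein of the same complex, had the opposite sign and did not pass the test, at -0.26 ± 0.18 (limma, adjusted p = 0.910).

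Ndufa6, an accessory subunit of complex I whose promoter is printed above, had 7.97, 8.27 and 8.29 in Erg -/- MPPs, 8.49, 7.79 and 8.38 in Erg fl/fl MPPs, 8.82, 8.35 and 8.99 in Erg +/- HSCs and 7.83, 8.60 and 8.10 in Erg +/+ HSCs. Its highest 2 arrays are both Erg +/- HSC arrays, but the HSC groups overlap, and the difference was 0.54 ± 0.25 (limma, adjusted p = 0.789). The remaining genes of smallest p were Atp5c1 (0.35 ± 0.20), the gamma subunit of the ATP synthase, on the positive side, which lay between 0.17 and 0.53 when single arrays were left out, and Ndufa5 (-0.47 ± 0.22), an accessory subunit of complex I, and Cox10 (-0.33 ± 0.18), the enzyme that makes heme o for complex IV, on the negative side. The largest difference of either sign, -0.90 ± 0.70 for Ndufab1, came with the widest spread, since its Erg +/+ HSC arrays alone read 4.88, 6.51 and 8.01.

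Whether the effect of Erg loss differed between MPPs and HSCs was tested as an interaction, the MPP difference minus the HSC difference. None of the 66 was called (limma), with 0.0200% of all genes called, and none had an unadjusted p under 0.05, where 3.88% of all genes did. The median was -0.08 (28 positive), beside -0.03 over all genes and -0.08 over the 4992 brighter genes. Without Erg fl/fl MPP replicate 1 the median of the 66 was 0.02. The 3 of smallest p on the positive side were Cox15 (0.69 ± 0.38), Cox4i2 (0.65 ± 0.38) and Ndufa5 (0.48 ± 0.31), and on the negative side Ndufa2 (-0.68 ± 0.35), Cox6b2 (-0.42 ± 0.25) and Ndufa6 (-0.59 ± 0.36), each with an adjusted p of 1.000 (limma). Cox4i2 lay between 0.38 and 0.89 when single arrays were left out. The intervals were wider here, and 41 of the 66 lay within 1 log2 unit of 0. Of the 66, 29 (43.9%) had the same sign in both effects, against 54.7% of all genes. Over the 66 genes the 2 effects, which share no arrays, had a Pearson correlation of 0.03 (Spearman 0.0058), against 0.13 (Spearman 0.13) over all 9984 genes, given as a description because genes share arrays.

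**Figure D2:**
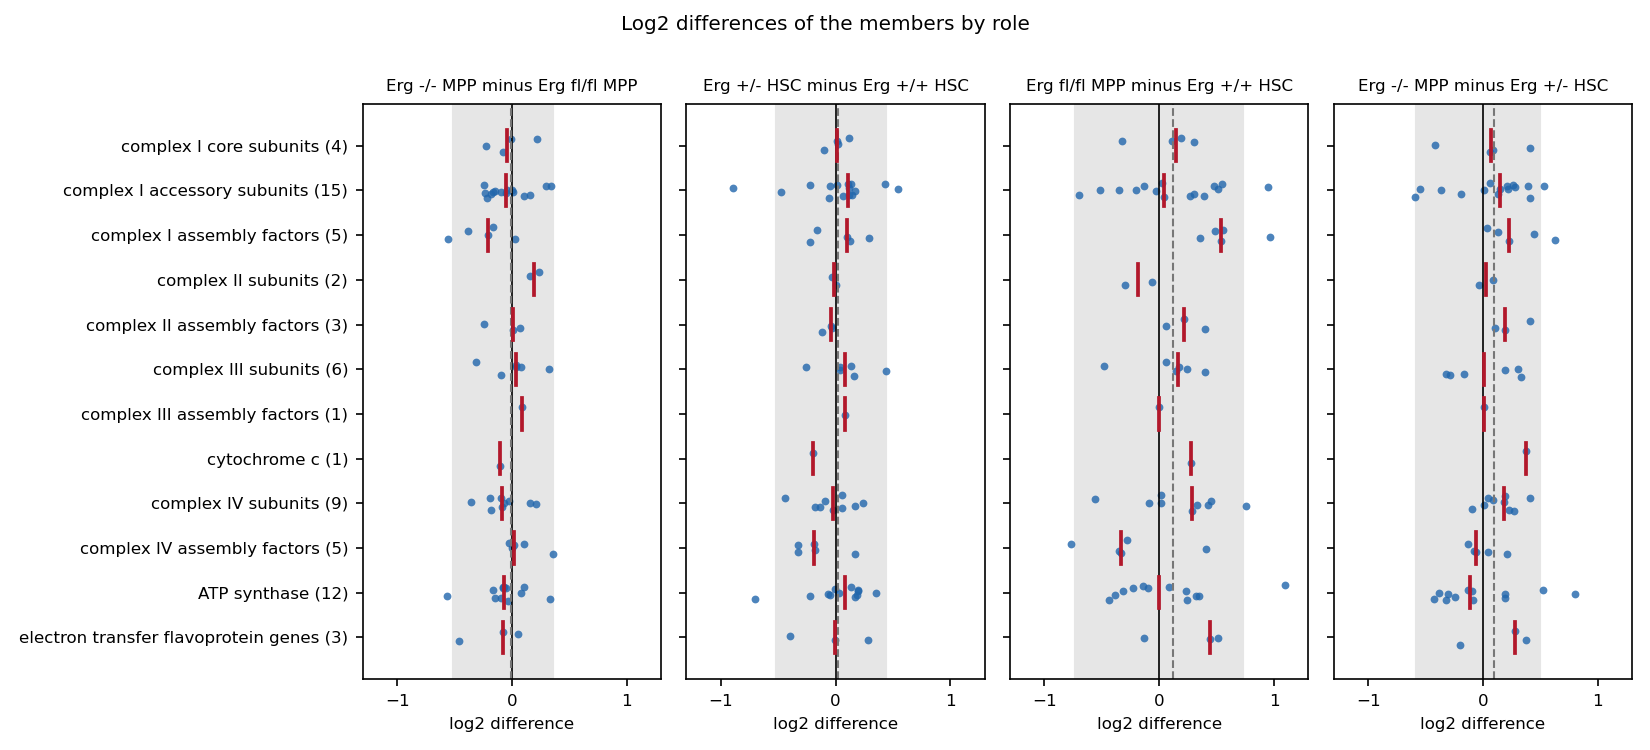
Log2 differences of the 66 genes (points) in 4 comparisons, grouped by role with the number of genes in parentheses, with red bars at each role's median, a dashed line at the median of all 9984 genes and a grey band from their 5th to their 95th percentile. Complex I assembly factors lie right of 0 for 5 of 5 genes in both MPP minus HSC panels, and the MPP and HSC genotype panels are centred near 0.

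Setting Erg fl/fl MPPs against Erg +/+ HSCs, the populations with intact Erg, gave the most called genes overall. None of the 66 genes was called (limma, adjusted p under 0.05), where 1.28% of all genes were, and the smallest adjusted p was 0.0830, for Ndufa2. The median difference was 0.16 with 43 of 66 positive (65.2%, against 62.4% of all genes). Over all genes the median was 0.12, and over the 4992 brighter genes it was -0.0019. At an unadjusted p under 0.05, 13 genes were higher in MPPs (19.7%, background 14.4%) and 2 were lower (3.03%, background 7.91%). The groups did not overlap for 19 of the 66 (28.8%, background 27.0%), with 15 higher and 4 lower. Without Erg fl/fl MPP replicate 1 the median was 0.07 and the counts at an unadjusted p under 0.05 were 5 higher and 4 lower, together 13.6% of the 66 against 24.5% of all genes. Without that array the groups did not overlap for 16 higher and 11 lower genes (40.9%), against 44.95% of all genes. Centring each array on its median gave 6 higher and 6 lower, together 18.2% against 19.3% of all genes, with a median of 0.06 for the 66 and 0.02 for all genes. Repeating the quantile normalisation gave 10 higher and 2 lower, together 18.2% against 18.4% of all genes, beside an all-gene median of 0.03. The excess of higher over lower genes was therefore lost without that array and with median centring, but not with quantile normalisation. The 95% interval lay within 1 log2 unit of 0 for 49 of the 66.

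The 13 higher at an unadjusted p under 0.05 were Ndufa2, Ndufa10, Ndufa12, Ndufb9 and Ndufc2 of complex I, its assembly factor Ndufaf1, Uqcrh of complex III, Cox5a, Cox5b and Cox6b1 of complex IV with its assembly factor Cox20, Atp5g1 of the ATP synthase, and Etfa, a subunit of electron transfer flavoprotein. The 2 lower were Uqcrc2 and Cox15. Ndufa2, an accessory subunit of complex I, had 9.52, 9.56 and 9.70 in Erg -/- MPPs, 9.97, 9.66 and 9.88 in Erg fl/fl MPPs, 8.68, 9.60 and 9.70 in Erg +/- HSCs and 8.78, 8.69 and 9.20 in Erg +/+ HSCs. All 6 MPP arrays lie above all 3 Erg +/+ HSC arrays, while the Erg +/- HSC arrays are split, with 1 low and 2 in the range of the MPPs. The control difference was 0.95 ± 0.25 (SE, n = 3 each; limma, adjusted p = 0.0830), and 0.88 without Erg fl/fl MPP replicate 1 (limma, adjusted p = 0.113). It passed the threshold in 1 alternative fit, the one that left out Erg +/- HSC replicate 1 (limma, adjusted p = 0.0335), an array that is not part of the contrast but enters the shared estimate of the spread.

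Ndufaf1 had 7.80, 7.64 and 7.91 in Erg -/- MPPs, 8.81, 8.42 and 7.77 in Erg fl/fl MPPs, 7.28, 7.42 and 6.75 in Erg +/- HSCs and 7.08, 7.91 and 7.13 in Erg +/+ HSCs. The highest 2 values are Erg fl/fl MPP arrays, and 1 Erg +/+ HSC array reaches into the MPP range. The difference was 0.96 ± 0.29 (limma, adjusted p = 0.106). The other 4 assembly factors of complex I were also positive here, Ndufaf4 by 0.55, Ndufaf5 by 0.54, Ndufaf6 by 0.49 and Ndufaf3 by 0.35, giving a median of 0.54 for the 5. All 5 were still positive without Erg fl/fl MPP replicate 1, with a median of 0.38, Ndufaf1 at 0.72, Ndufaf5 at 0.25 and Ndufaf6 at 0.20. Among further assembly factors of complex I whose symbols lie outside the rule, Timmdc1 (-0.37) and Tmem126b (-0.15) had the opposite sign. The 15 accessory subunits of the same complex had a median of 0.04, and -0.09 without that array, and the 4 core subunits of 0.15 and 0.08.

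Cox5a, a nuclear-encoded subunit of complex IV, had 9.73, 9.61 and 9.70 in Erg -/- MPPs, 10.12, 9.74 and 9.75 in Erg fl/fl MPPs, 9.49, 8.87 and 9.46 in Erg +/- HSCs and 8.58, 9.35 and 9.40 in Erg +/+ HSCs. All 6 MPP arrays lie above all 6 HSC arrays. The control difference was 0.76 ± 0.24 (limma, adjusted p = 0.116), it lay between 0.49 and 0.90 when single arrays were left out, and it was 0.37 without the 2 arrays of lowest weight. The complex IV subunits were positive for 7 of 9 in this contrast (median 0.29) and its assembly factors for 1 of 5 (median -0.33), with Cox15 the most negative. These were 5 of 9 (median 0.23) and 1 of 5 (median -0.39) without Erg fl/fl MPP replicate 1. Cox15 had 6.89, 7.85 and 7.52 in Erg -/- MPPs, 7.24, 6.61 and 7.33 in Erg fl/fl MPPs, 7.68, 7.33 and 7.50 in Erg +/- HSCs and 7.79, 7.53 and 8.16 in Erg +/+ HSCs. The 2 control groups do not overlap, but the 2 groups with Erg loss do, and the control difference was -0.77 ± 0.27 (limma, adjusted p = 0.141), and -0.85 without that array (limma, adjusted p = 0.135).

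Uqcrc2 had 9.10, 9.04 and 8.68 in Erg -/- MPPs, 9.35, 8.93 and 8.83 in Erg fl/fl MPPs, 9.17, 9.30 and 9.32 in Erg +/- HSCs and 9.43, 9.57 and 9.56 in Erg +/+ HSCs. In both pairs the MPP arrays lie below the HSC arrays. The control difference was -0.48 ± 0.18 (limma, adjusted p = 0.152), and without Erg fl/fl MPP replicate 1 it was -0.64 (limma, adjusted p = 0.0795). Within complex III, Uqcrh, the hinge protein, had the opposite sign at 0.40 ± 0.17 (limma, adjusted p = 0.205), and 5 of the 6 subunits were positive, against 3 of 6 without Erg fl/fl MPP replicate 1. The largest difference of all 66 was that of Atp5g1, another gene for subunit c of the ATP synthase. Atp5g1 had 7.72, 8.30 and 7.57 in Erg -/- MPPs, 7.63, 7.59 and 8.66 in Erg fl/fl MPPs, 7.69, 6.51 and 7.00 in Erg +/- HSCs and 7.30, 6.99 and 6.32 in Erg +/+ HSCs. The 2 control groups do not overlap, with 1 Erg fl/fl array well above the others, and the control difference was 1.09 ± 0.37 (limma, adjusted p = 0.131), and 1.26 without Erg fl/fl MPP replicate 1. The 12 ATP synthase genes together were split, with 6 positive and 6 negative, also without that array. Among the negative was Atp5pb at -0.44, whose other probe set gave 0.22.

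**Figure D3:**
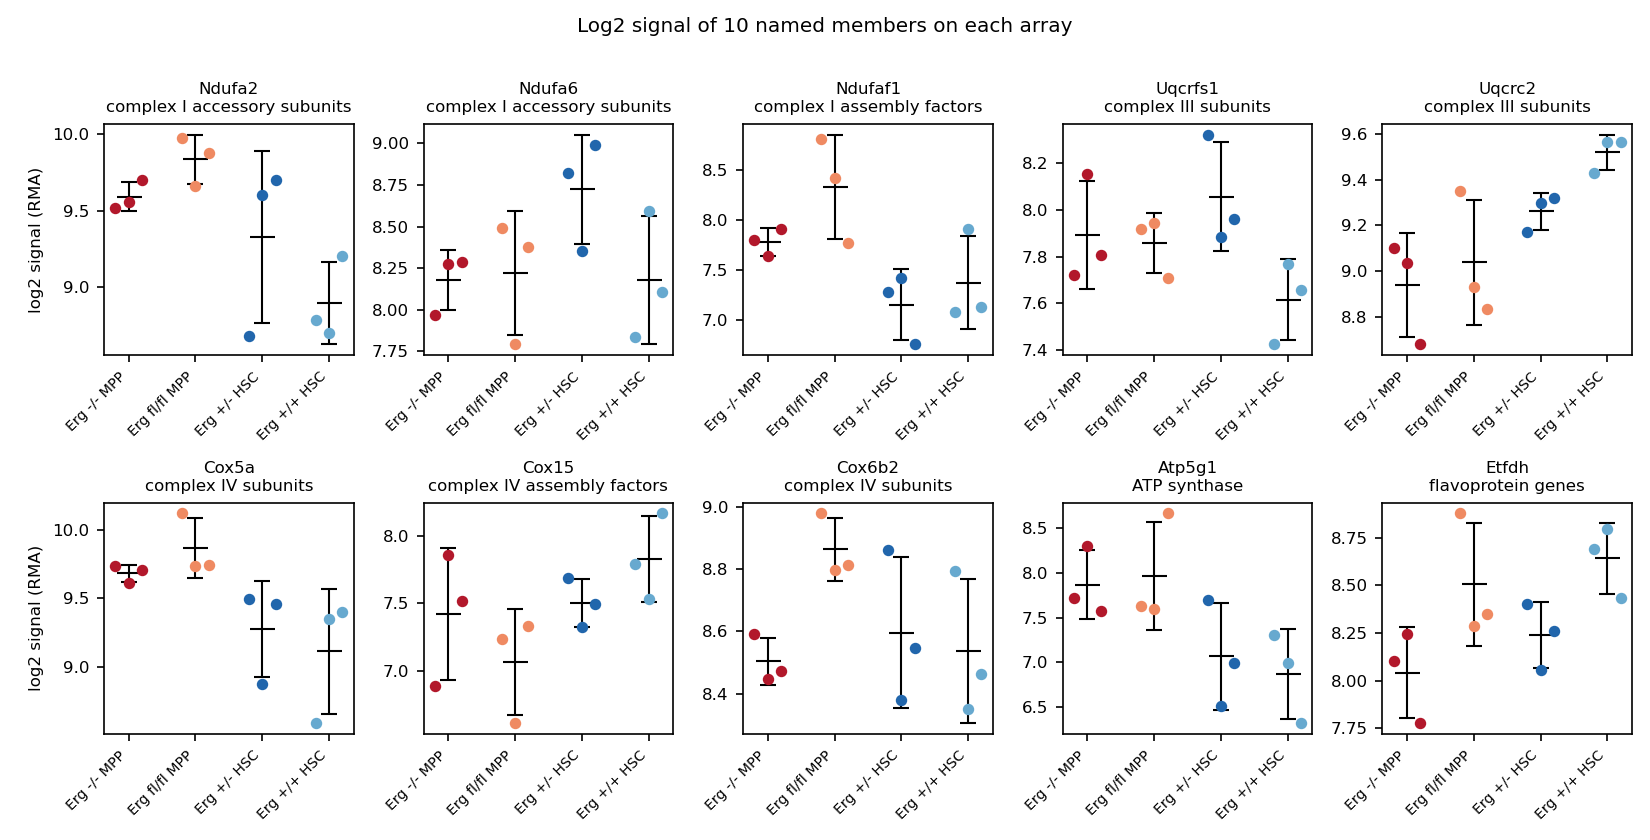
Log2 signal (RMA, vertical axis, scaled separately for each gene) of 10 named genes in the 4 groups, with points for the 3 arrays and black bars for the mean ± SD. Cox5a separates all 6 MPP arrays from all 6 HSC arrays, and Etfdh is lower in the groups with Erg loss in each population.

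The same population contrast with Erg loss on both sides, Erg -/- MPPs minus Erg +/- HSCs, shares no arrays with the control contrast, but the 2 sides differ in Erg dose as well. None of the 66 was called (limma), where 0.120% of all genes were, and the smallest adjusted p was 0.446. The median was 0.10 with 44 of 66 positive (66.7%, against 59.9% of all genes), beside a median of 0.10 over all genes. Over the 4992 brighter genes it was -0.10, and over the 64 of the 66 among them 0.10. At an unadjusted p under 0.05 no gene was higher (background 1.79%) and 1 was lower (1.52%, background 2.05%). The groups did not overlap for 12 of the 66 (18.2%, background 20.1%), 8 higher and 4 lower, and the 95% interval lay within 1 log2 unit of 0 for 55 of the 66. The 1 lower gene was Ndufa6, at -0.55 ± 0.25 (limma, adjusted p = 0.446). Its Erg -/- MPP values sit close to both control groups, and its Erg +/- HSC values are the high ones, as given above. The 3 of smallest p on the positive side were Ndufaf1 (0.63 ± 0.29), Atp5g1 (0.80 ± 0.37) and Ndufa10 (0.40 ± 0.19), an accessory subunit of complex I. On the negative side Ndufa6 was followed by Atp5l (-0.43 ± 0.20), subunit g of the ATP synthase, and Ndufv1 (-0.42 ± 0.19), the complex I subunit that binds NADH and FMN. All 6 had adjusted p-values of 0.446 (limma). The value of Atp5l rests on the choice of probe set, since its other probe set, which is dimmer and lies among neighbours from another chromosome, gave 0.33, and the mean of both -0.05. Leaving out single arrays moved Atp5g1 between 0.52 and 1.11.

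The signs of the 2 population contrasts were alike for 53 of the 66 genes (80.3%), against 74.9% of all genes, with 37 positive and 16 negative in both. They were alike for 50 (75.8%) without Erg fl/fl MPP replicate 1, against 76.5%. The Pearson correlation over the 66 was 0.62 (Spearman 0.63), against 0.58 (Spearman 0.57) over all genes, again as a description over genes that share arrays. Ndufc2, Ndufa10, Ndufb9, Cox5a and Cox6b1 were the 5 genes whose MPP arrays lay above the HSC arrays in both contrasts, and Uqcrc2 was the 1 gene whose MPP arrays lay below in both. Together these 6 are 9.09% of the 66, against 5.49% of all genes, and without Erg fl/fl MPP replicate 1 there were 7 (10.6%), against 10.5%. With Erg loss 59.9% of all genes were positive. The 5 complex I assembly factors were again all positive, with a median of 0.23, and 8 of the 9 complex IV subunits were (median 0.18). In contrast, 8 of the 12 ATP synthase genes were negative (median -0.11). This count rests in part on the choice of probe set. Atp5pb counted as negative at -0.38, while its other probe set, among neighbours from its own chromosome, gave 0.10.

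**Figure D4:**
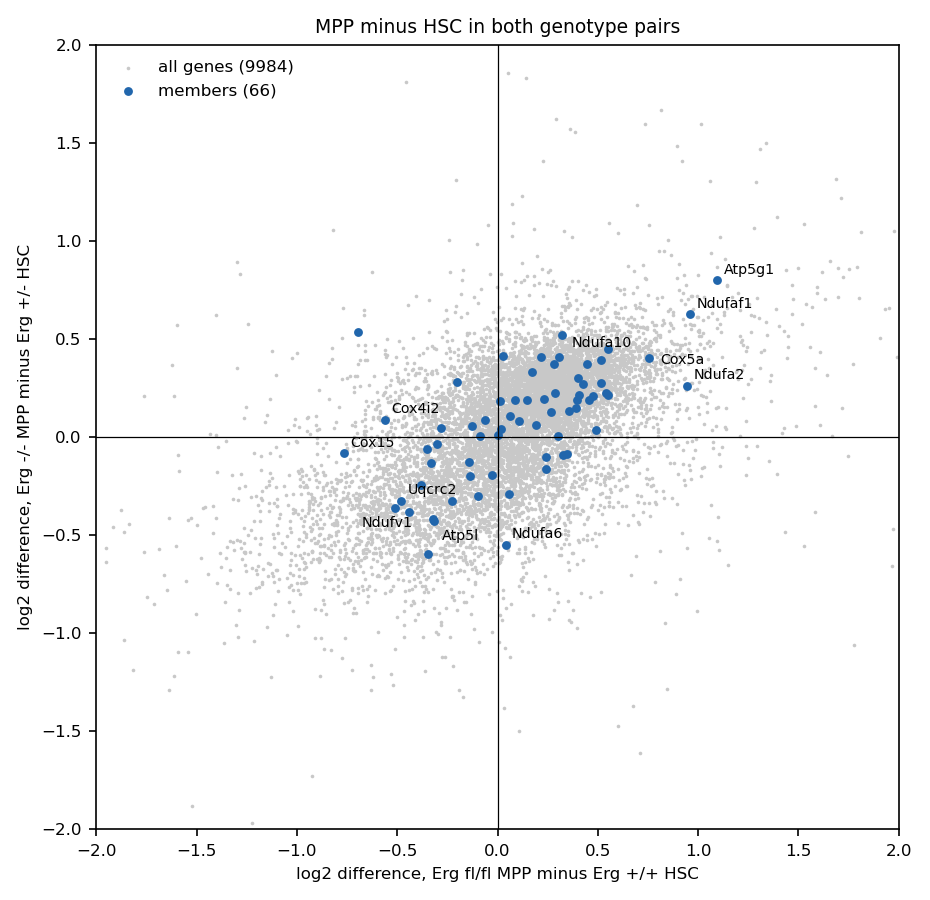
MPP minus HSC log2 differences with intact Erg (horizontal axis, Erg fl/fl MPP minus Erg +/+ HSC) and with Erg loss (vertical axis, Erg -/- MPP minus Erg +/- HSC) for the 66 genes (blue) over all 9984 genes (grey, 38 of them outside the axes). Most blue points, 53 of 66, fall in the quadrants of equal sign and lie within the cloud of all genes.

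Complex II is the only complex that also belongs to the citric acid cycle. Its iron-sulfur subunit Sdhb had 8.58, 8.93 and 8.59 in Erg -/- MPPs, 8.88, 8.05 and 8.47 in Erg fl/fl MPPs, 8.53, 8.54 and 9.14 in Erg +/- HSCs and 8.71, 8.80 and 8.79 in Erg +/+ HSCs. Its membrane anchor Sdhc averaged 8.92 ± 0.08 in Erg -/- MPPs, 8.76 ± 0.20 in Erg fl/fl MPPs, 8.83 ± 0.07 in Erg +/- HSCs and 8.82 ± 0.14 in Erg +/+ HSCs (SD, n = 3 each). For both genes the groups overlap in all 4 comparisons when every array is used. Without Erg fl/fl MPP replicate 1, the Erg fl/fl MPP arrays lay below the Erg +/+ HSC arrays for both genes. With that array left out, these 2 groups did not overlap for 44.95% of all genes, in either direction. The control population difference was then -0.51 for Sdhb (limma, adjusted p = 0.199) and -0.18 for Sdhc. The MPP genotype difference was then 0.44 for Sdhb and 0.27 for Sdhc. The complex II assembly factors Sdhaf1 and Sdhaf3 had control population differences of 0.40 ± 0.28 and 0.22 ± 0.26. Ttc19, an assembly factor of complex III, differed by between 0.0015 and 0.09 in the 4 comparisons between a pair of groups. Without Erg fl/fl MPP replicate 1, Ttc19 differed by 0.21 in the MPP genotype comparison and by -0.12 in the control population contrast. Cycs, the electron carrier between complexes III and IV, had population differences of 0.28 ± 0.23 with intact Erg and 0.37 ± 0.23 with Erg loss, but its probe set lies among neighbours from another chromosome, and its other probe set gave 0.28 and -0.37. With intact Erg it differed by 0.08 without Erg fl/fl MPP replicate 1.

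Of the tissue-restricted isoforms, Cox4i2, which is known from lung and is induced by low oxygen, had 5.94, 5.56 and 6.01 in Erg -/- MPPs, 5.31, 5.79 and 5.78 in Erg fl/fl MPPs, 5.75, 5.40 and 6.08 in Erg +/- HSCs and 6.13, 5.70 and 6.73 in Erg +/+ HSCs. Its groups overlap in every comparison, and its control population difference was -0.56 ± 0.27 (limma, adjusted p = 0.242), between -0.80 and -0.29 when single arrays were left out. The widely expressed Cox4i1 averaged 10.43 ± 0.20 in Erg -/- MPPs, 10.50 ± 0.20 in Erg fl/fl MPPs, 10.39 ± 0.09 in Erg +/- HSCs and 10.48 ± 0.10 in Erg +/+ HSCs (SD, n = 3 each), with differences of -0.09 to 0.04 in the 4 comparisons. Atp5g3, the third gene for subunit c, differed by 0.09 ± 0.16 and 0.19 ± 0.16 between the populations with intact Erg and with Erg loss, beside 1.09 and 0.80 for Atp5g1 and 0.32 and 0.52 for Atp5g2. Cox7a2 and Cox7b differed by -0.18 to 0.18 in the 4 comparisons. The Cox7b probe set lies among neighbours from another chromosome, and its other probe set gave -0.20 to 0.36.

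Genes outside the complexes that serve the same process were described from lists, all of which gave 0 genes called in all 5 comparisons (limma) and 0 to 4 genes per list at an unadjusted p under 0.05. They held 10 measured of 19 listed genes of the citric acid cycle and pyruvate dehydrogenase, 6 of 25 of glycolysis, 15 of 21 for mitochondrial DNA upkeep, transcription and biogenesis, 7 of 13 for coenzyme Q synthesis, 14 of 27 further assembly factors, 6 of 10 carriers, porins and uncouplers, and 3 of 9 antioxidant genes. Their median differences ran from -0.41, for the glycolysis genes in the population contrast with Erg loss, to 0.08, for the citric acid cycle genes in the interaction. In the biogenesis list, 4 of 15 had an unadjusted p under 0.05 in the MPP genotype comparison, all of them negative (background 3.58% for lower genes): Tfam (-0.66 ± 0.24), the main packaging protein and transcription factor of mitochondrial DNA, Polg2 (-0.60), a subunit of the mitochondrial DNA polymerase, Gabpb1 (-0.57), a partner of the ETS-family factor GABPA, and Lrpprc (-0.43), which stabilises mitochondrial messenger RNAs. The list's median there was -0.17. With Erg fl/fl MPP replicate 1 left out, Polg2 differed by -0.49, Gabpb1 by -0.35 and Lrpprc by -0.26, and none of the 4 kept an unadjusted p under 0.05. Tfam had 7.19, 7.10 and 6.98 in Erg -/- MPPs, 8.09, 7.76 and 7.41 in Erg fl/fl MPPs, 7.38, 7.36 and 6.63 in Erg +/- HSCs and 7.21, 6.62 and 6.99 in Erg +/+ HSCs. All 3 Erg fl/fl MPP values exceed all 9 others. Its adjusted p in MPPs was 0.998 (limma), and without Erg fl/fl MPP replicate 1 the difference was -0.50. Pfkm, a phosphofructokinase of glycolysis, differed by -0.81 between Erg fl/fl MPPs and Erg +/+ HSCs (limma, adjusted p = 0.0787), and by -0.997 without that replicate (limma, adjusted p = 0.0486). In the same contrast Pgk1, the phosphoglycerate kinase of glycolysis, had the opposite sign at 0.62 (limma, adjusted p = 0.0911). Atpaf2, an assembly factor of the ATP synthase, differed by -1.20 there (limma, adjusted p = 0.0822), and by -1.54 without the same replicate (limma, adjusted p = 0.0339). The genes of smallest p in the remaining lists were Sucla2 (0.62) of the citric acid cycle, Coq7 (1.001) of coenzyme Q synthesis, Ucp3 (0.42), an uncoupling protein, and Txnrd2 (-0.89), a mitochondrial thioredoxin reductase, with adjusted p-values of 0.112 to 0.215 (limma) in the control population contrast.

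Markers of other cell types differed between the groups beside these values. The 7 measured of 10 B cell markers averaged 5.99 to 6.28 in Erg -/- MPPs and 7.19 to 7.64 in Erg fl/fl MPPs, the 3 of 9 mast cell and basophil markers 4.40 to 4.90 and 5.56 to 6.71, and the 3 of 10 T and NK cell markers 4.79 to 5.46 and 6.00 to 6.16. Of the 7 B cell markers, 5 had negative differences, and 2 of these, Vpreb1 (-4.75) and Igll1 (-1.88), were called (limma). The other 2, Cd24a (0.05) and Blnk (0.12), had positive differences. All 3 mast cell and basophil markers had negative differences. Mcpt8 (-3.54) was called (limma), while Ms4a2 (-0.64) and Hdc (-0.37) were not. Of the 3 T and NK cell markers, Nkg7 fell by 3.05 (limma, adjusted p = 0.0274), while Cd3d, which defines T cells, and Il2rb differed by -0.01 and 0.07. Between the HSC groups the 11 of 16 erythroid markers averaged 6.43 to 6.76 in Erg +/- HSCs and 5.73 to 6.12 in Erg +/+ HSCs. Of these, 10 had positive differences, Hemgn had the opposite sign at -0.89, and none was called (limma). In the MPP genotype comparison 10 of the 11 erythroid markers were positive as well, and none was called (limma). The median was 0.39 there and 0.56 between the HSC groups, and Hemgn was again negative at -0.59. The erythroid averages of the MPP groups overlapped, at 6.31 to 6.88 in Erg -/- MPPs and 6.07 to 6.46 in Erg fl/fl MPPs. The 5 of 13 endothelial and stromal markers averaged 5.58 to 5.79 in Erg +/- HSCs and 6.43 to 7.15 in Erg +/+ HSCs, and all 5 were lower. Sparc, a matrix protein, was 1 of the 2 genes called in that comparison and fell by 2.08 (limma, adjusted p = 0.0401). Their part in the values of the oxidative phosphorylation genes was not tested.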

How the data were processed

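Each of the 12 samples was hybridised to 1 Affymetrix gene array after amplification of 20 ng of total RNA and labelling of 2.5 µg of cDNA, per the labels' protocols. The authors deposited log2 signals, made with RMA and the affy package per the submitters' processing notes; array scans and probe values were not used here. The values ran from 0.939 to 13.4. Of 18719 probe sets, 10657 carried 1 gene symbol in the platform annotation, 523 several and 7539 none. Where a gene had several, the probe set of highest average signal on the 12 arrays was kept, giving 9984 genes.

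In R 4.3.3, limma 3.58.1 fitted the 4 group means to all genes at once, unfiltered, with 8 residual and 4.35 prior degrees of freedom. Tests were two-sided, p-values were adjusted over all 9984 genes (Benjamini-Hochberg), and genes were called at an adjusted p under 0.05. Intervals cover 95%. The number of arrays limits the precision, and since no label states separate mice, p-values measure only how these samples scatter, which may be technical. Genes were named by rule: the 3 members of smallest p per comparison and direction, the 2 of smallest F test p per role, and tissue-restricted isoforms with their partners; extremes, and genes of non-overlapping groups, were named after their values were seen. From each pathway list the rule takes the gene of smallest p per comparison, of which those of the control population contrast, and Tfam in MPPs, are given; Polg2, Gabpb1, Lrpprc, Pgk1, Timmdc1, Tmem126b and the markers were named after their values were seen. Members, lists and rules were chosen with earlier results of these data known.

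Samples with the same replicate number did not deviate together: 12 correlations of deviations ran from -0.085 to 0.104, with 1 over 0.1, so replicate numbers were not used as pairs. Probe set numbers follow the genome, and 97.2% of probe sets had neighbours (10 on each side) from their gene's own chromosome. For 6 members (Atp5h, Atp5pb, Cox7b, Cycs, Ndufb11 and Uqcrb) the probe set used lay among genes of another chromosome. Promoter sequences came from RefSeq.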

Additional observations from a re-analysis of the deposited data

How the results depend on the processing

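In 25 alternative settings none of the 66 genes was called in any comparison, with 1 exception: Ndufa2 in the control population contrast without Erg +/- HSC replicate 1, so that the count ran from 0 to 1 when single arrays were left out. Of 929 recomputed values 916 kept their direction and side of the threshold. A fit with a replicate block called 0 of the 66 in every comparison and gave 14 higher and 4 lower at an unadjusted p under 0.05 in the control population contrast. Together these were 27.3% of the 66, against 21.8% of all genes. Medians of the 66 moved most where Erg fl/fl MPP replicate 1 entered. In the MPP genotype comparison the median was 0.0384 with quantile normalisation repeated and 0.0461 with the 2 arrays of lowest weight left out, and it ran from -0.090 to 0.0461 when single arrays were left out. In the interaction it was 0.0067 and 0.0472 under the same settings and ran from -0.158 to 0.0189. In the control population contrast it was 0.0623 with median centring and 0.0283 when the 2 low-weight arrays were dropped, and it ran from 0.0722 to 0.218 when single arrays were left out. The cause was not tested. All-gene medians of that contrast were 0.12 as deposited, 0.03 with quantile normalisation repeated, 0.02 with median centring and -0.0019 over the 4992 brighter genes, which hold 64 of the 66. Probe sets among their own chromosome, an alternative chosen after seeing the data, left 64 members and the same counts at an unadjusted p under 0.05. In the control population contrast these were 23.4% of the 64, against 22.2% of all genes. With 3 arrays per group, the median half-width of the 95% intervals of the 66 was 0.48 log2 units between a pair of groups, and 54 genes of the system were not analysed here.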
